A study of Rattus norvegicus with 40 samples.

Results

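MiR-149 was followed through its 2 arms, rno-miR-149-5p and rno-miR-149-3p, which are 2 of the 752 miRNAs counted in rat plasma after traumatic brain injury (TBI). The 2 rows were taken by name, because miR-149-5p had been picked out earlier for its lower count in injured than in sham-operated rats. The difference from sham is therefore described below with its values and standard error (SE) and with no test. The outcome groups and the arms did not enter that choice and were tested or described separately. The choice did not compare days, but the day differences reuse the libraries that entered it, as stated below for sham.

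Plasma came from 20 adult male Sprague-Dawley rats, each sampled from the tail vein on D2 and again on D9 after surgery, which gave 40 small RNA libraries. Lateral fluid percussion, a pressure pulse onto the exposed dura, was applied to 16 rats, and the 4 sham-operated controls underwent the craniotomy without the pulse, so every animal had skull surgery. Of the injured rats, 7 had epilepsy in later video-EEG monitoring (TBI+) and 9 did not (TBI−). Since the outcome was recorded months after the blood was drawn, TBI+ on D2 or D9 means a rat that was later diagnosed. The tissue is plasma, so a level is a share of circulating miRNA reads and says nothing of the organ of origin.

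The mature arms of a miRNA are cut from opposite sides of 1 hairpin, and usually 1 arm is loaded into Argonaute and accumulates while the other is degraded. The loaded arm finds mRNAs mainly through its seed, bases 2 to 8 from the 5′ end. MiR-149-5p has been studied in cultured cells as a repressor of MyD88, the adaptor through which Toll-like receptors and the interleukin-1 receptor signal to NF-kB, and in tumours. MiR-149-3p is a G-rich arm studied mostly in cancer cells. Both arms and their hairpin are shown because the contrast between the arms is one of the results, with the seeds in capitals in the mature arms and both arms in capitals in the hairpin:

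rno-miR-149-5p: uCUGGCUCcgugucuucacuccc

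rno-miR-149-3p: gGGACGGGggcggugcug

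Mir149 hairpin: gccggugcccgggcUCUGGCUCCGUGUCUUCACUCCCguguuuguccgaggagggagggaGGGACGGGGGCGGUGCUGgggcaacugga

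The sequences are those of RefSeq for the rat assembly GRCr8. The hairpin of 89 bases lies on the plus strand at chr9:100861800-100861888, inside the span of the protein-coding gene Gpc1 (chr9:100843645-100871458), which encodes the heparan sulfate proteoglycan glypican-1. The 5p arm is 23 bases long (chr9:100861814-100861836) and is made of G or C at 60.87% of its bases. The 3p arm is 18 bases long (chr9:100861860-100861877), is G or C at 83.33% and is G alone at 66.67%. Neither seed, CUGGCUC or GGACGGG, occurred in any other of the 693 mature rat miRNAs of the RefSeq table. Of the 752 counted miRNAs, 685 had a sequence there, and the seeds of the others were not checked. No other miRNA had counts within 5% of those of miR-149-5p over all libraries, which is how near-copies that share reads would appear.

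Almost every read of miR-149 came from the 5p arm. MiR-149-5p had 11169 reads and was found in 40 of 40 libraries, with 32 to 1155 reads each. MiR-149-3p had 4 reads in all, 2 in the D2 library of TBI+ rat 7 and 2 in the D9 library of TBI+ rat 3, and 0 in the other 38 libraries. The 3p share of the reads of both arms was 0.0358% when reads were summed (exact 95% binomial interval 0.00976 to 0.0916%), and the mean of the shares of the single libraries was 0.0462%. Sham libraries held 0 of 2581 reads on D2, which allows a share of up to 0.116%, and 0 of 277 on D9, which allows up to 1.08%. TBI− libraries held 0 of 2741 on D2 and 0 of 1880 on D9, which allow up to 0.109% and 0.160%. All libraries were thus at or under 3 reads of miR-149-3p, the level below which no fold is given here, and a difference between groups was not detectable at this depth. Such intervals and limits cover counting error only, because PCR copies of 1 molecule are counted separately.

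The depth differed between groups on D9. Library totals, the summed reads of all miRNAs, were 594332 to 1331905 in sham and 404542 to 2562083 in TBI rats on D2. On D9 they were 140636 to 358202 in sham and 332161 to 2864893 in TBI rats, so the sham values of D9 rest on the fewest reads of miR-149-5p (32 to 114 per library, against 437 to 1155 in sham on D2). Levels are given as CPM, the reads of a miRNA scaled to 1000000 reads of the library. The D9 library of sham rat 2 stood apart in several miRNAs (13311 CPM of miR-146a-5p), and the D9 differences, the order of the groups and the likeness values are also given without it. The library numbers in the sample titles fall into 3 runs whose meaning is not stated. On either day the sham libraries share their run with TBI+ rats 1 to 4 and with no TBI− rat, and all sham libraries moved from run 1 on D2 to run 3 on D9.

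On D2, miR-149-5p was at 735, 883, 654 and 413 CPM in sham rats 1 to 4. In the 16 TBI rats its lowest value was 141 CPM, the median 258 CPM and the highest 346 CPM. Every TBI rat was thus below every sham rat, with a gap between TBI− rat 1 at 346 CPM and sham rat 4 at 413 CPM. Sham rats averaged 671 ± 197 CPM (SD, n = 4), and the TBI mean was 248 ± 64.7 CPM (SD, n = 16). Of the 565 miRNAs with a read on D2, 0.885% (5 miRNAs) lay lower in every TBI than in every sham rat. By mean CPM miR-149-5p ranked 78 among the 481 miRNAs with a read in sham and 108 among the 555 with a read in TBI plasma.

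The fitted log2 fold change of TBI against sham on D2 was −1.34 (SE 0.20), or 39.5% of the sham level. The median of all 565 miRNAs was 0.09. TBI+ and TBI− rats lay below sham by like amounts, with log2 fold changes of −1.34 (SE 0.24) and −1.34 (SE 0.23); both comparisons use the same 4 sham rats. Within the run of library numbers that sham shares with 4 TBI+ rats, the log2 fold change was −1.33 (SE 0.26). A lower share of miR-149-5p in plasma can reflect fewer releasing cells, less release per cell or more of other miRNAs, and read shares alone cannot tell these apart. Set against miR-28-3p, which the study used as its endogenous reference, miR-149-5p had 60.8 ± 17.8 reads per 100 reads of miR-28-3p in sham (SD, n = 4), against 26.2 ± 8.11 after injury (SD, n = 16). The highest TBI rat reached 38.6 on this scale and the lowest sham rat 36.9, so here the groups met at their edges.

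**Figure D1:**
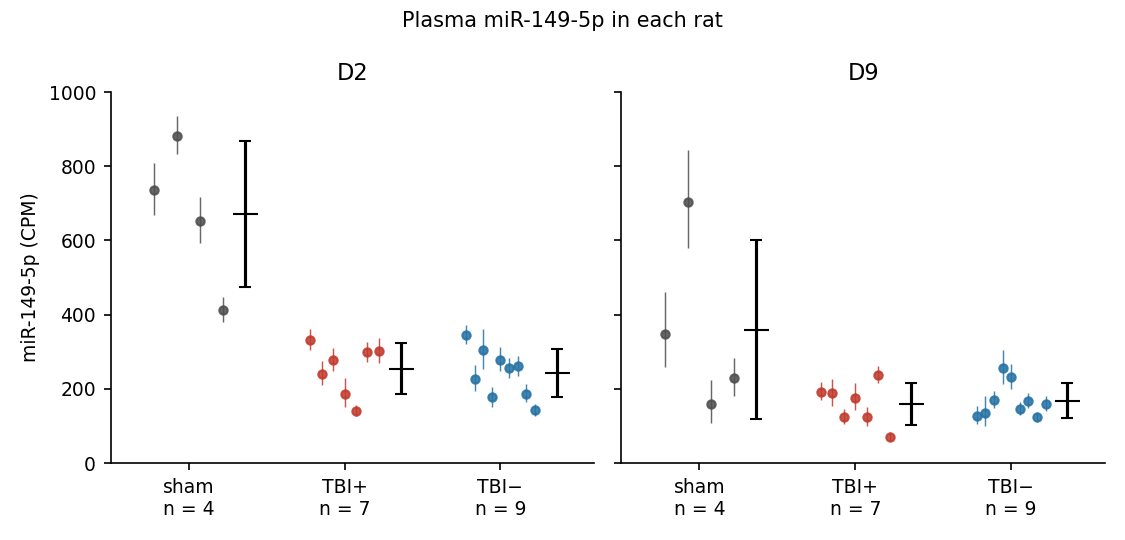
Level of miR-149-5p in CPM (vertical axis from 0) in each rat on D2 (left) and D9 (right) for sham, TBI+ and TBI− rats. Points are rats with exact 95% Poisson intervals of the reads, which cover counting error only, and the black marks give the mean ± SD of the group. On D2 the 4 sham rats sit between 413 and 883 CPM, above all 16 TBI rats, and on D9 sham rat 2 at 703 CPM sits far above the other 3 sham rats.

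On D9, miR-149-5p was at 348, 703, 158.4 and 229 CPM in sham rats 1 to 4, which averaged 360 ± 242 CPM (SD, n = 4). The 16 TBI rats ranged from 70.5 to 256 CPM with a median of 163.8 CPM, and averaged 164.5 ± 49.3 CPM (SD, n = 16). Sham rats 3 and 4 lay inside the TBI range, so the groups overlapped, as did all but 0.185% (1 miRNA) of the 541 miRNAs with a read on D9 when TBI below sham is asked for.

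The fitted log2 fold change on D9 was −1.03 (SE 0.30), or 49.1% of the sham level, where the median of all 541 miRNAs was 0.30. This value rested in good part on sham rat 2. Without that rat it was −0.60 (SE 0.32), against −1.29 to −1.01 without any of the others. TBI+ rats had a log2 fold change of −1.06 (SE 0.36) and TBI− rats one of −1.002 (SE 0.34) against the same sham rats, which became −0.62 and −0.58 without sham rat 2. Within the shared run of library numbers TBI+ rats were at −1.01 (SE 0.47), and at −0.44 (SE 0.44) without sham rat 2. The scaling also moved all miRNAs on D9, since their median was 0.30 with TMM and 0.12 with RLE size factors, and miR-149-5p was at −1.17 (SE 0.29) with the latter, or −0.61 (SE 0.30) without sham rat 2. On the D2 libraries the corresponding medians were 0.09 and 0.15, and miR-149-5p was at −1.27 (SE 0.20) with RLE.

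**Figure D2:**
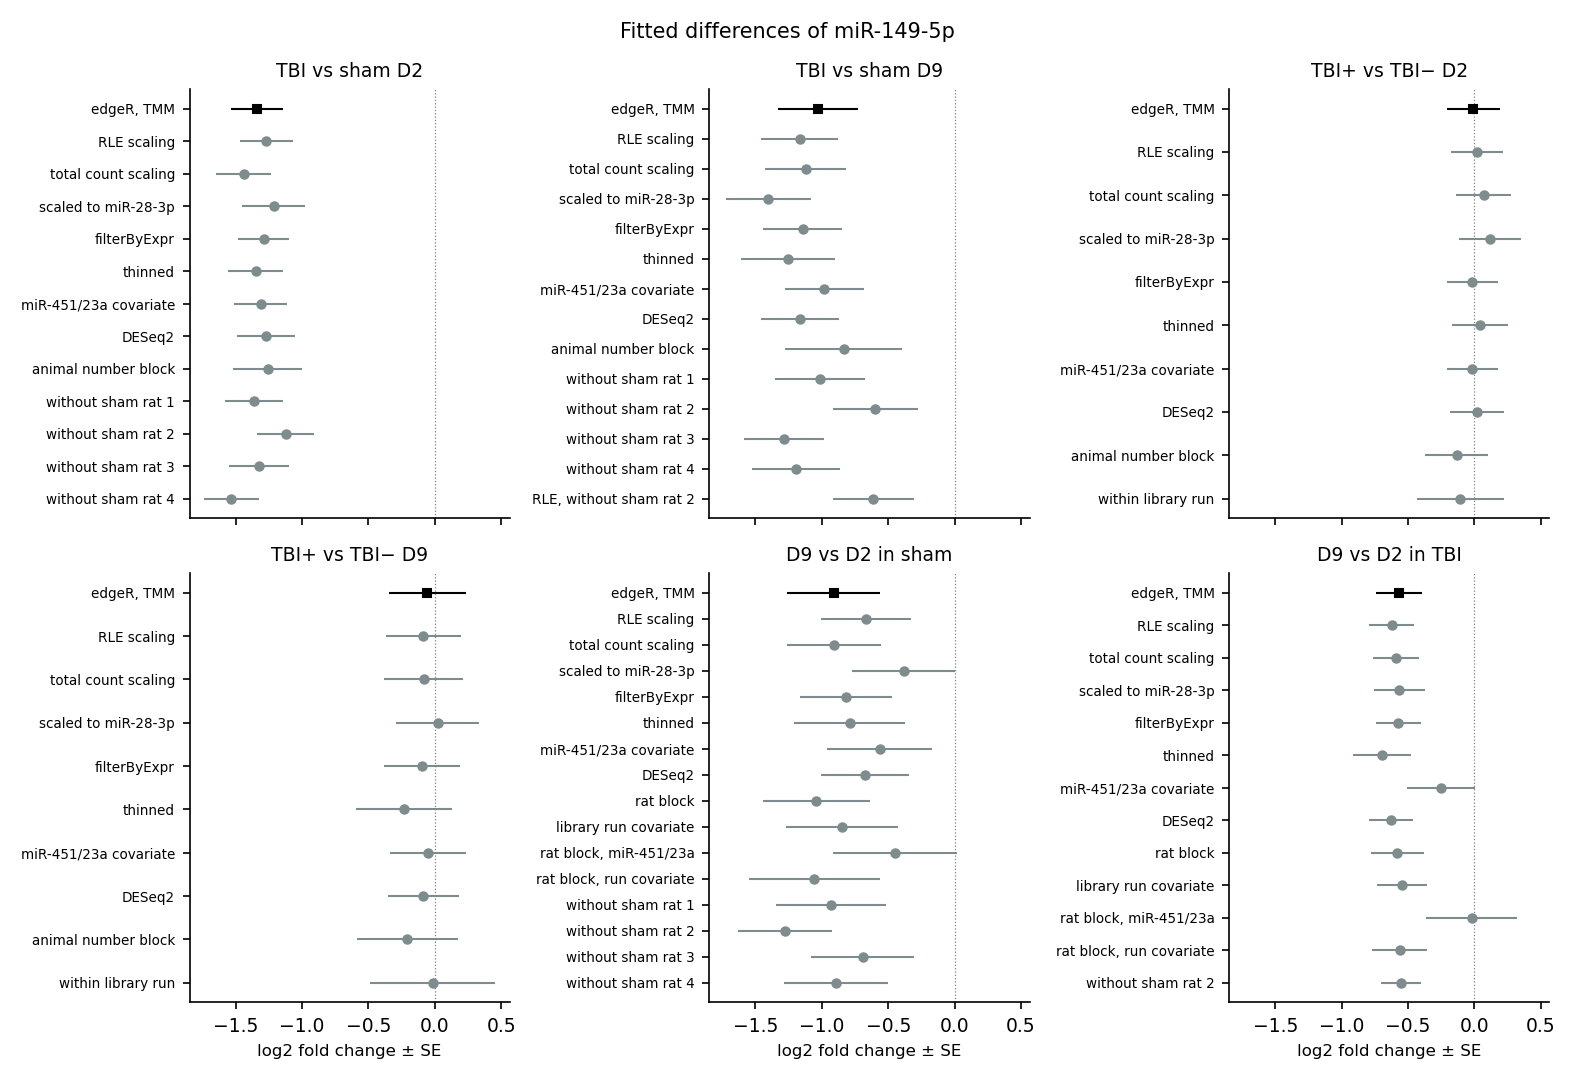
Log2 fold changes of miR-149-5p with their SE (horizontal axis, dotted line at 0) for 6 comparisons, as fitted with edgeR and TMM (black square) and under each other setting (grey points). Injury against sham stays left of 0 in both upper left panels and lies closest to 0 on D9 without sham rat 2, TBI+ against TBI− straddles 0, and the D9 against D2 difference in TBI rats moves towards 0 when the ratio of miR-451-5p to miR-23a-3p is a covariate.

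Rats that later had epilepsy were not separated by miR-149-5p from those that did not. On D2 the 7 TBI+ rats ranged from 141 to 333 CPM (median 277) and the 9 TBI− rats from 143 to 346 CPM (median 256), and the ranges covered each other almost fully. The means were 254 ± 68.8 CPM (SD, n = 7) and 242 ± 65.1 CPM (SD, n = 9). The log2 fold change of TBI+ against TBI− was −0.01 (SE 0.20, 95% interval −0.41 to 0.40), with an adjusted p of 1 in edgeR. TBI+ rats were thus at 99.4% of the TBI− level, with an interval of 75.1 to 131.5%.

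On D9 the TBI+ rats ranged from 70.5 to 239 CPM and the TBI− rats from 123 to 256 CPM. TBI+ rat 7 was the lowest of all at 70.5 CPM, and the other 6 TBI+ rats lay inside the TBI− range. The means were 159 ± 56.2 CPM (SD, n = 7) and 169 ± 46.3 CPM (SD, n = 9), and the log2 fold change was −0.06 (SE 0.29, 95% interval −0.65 to 0.54; edgeR adjusted p = 0.981). On each day 1 run of library numbers held 3 TBI+ and 5 TBI− rats, run 2 on D2 and run 1 on D9, with partly different TBI− rats. Within these runs it was −0.10 (SE 0.32) on D2 and −0.02 (SE 0.47) on D9. For comparison, edgeR called 0% of all miRNAs between TBI+ and TBI− on either day in either direction, with 38 on D2 and 22 on D9 at an unadjusted p under 0.05, and DESeq2 called 0 as well.

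MiR-149-5p fell from D2 to D9 in the injured rats. It was lower on D9 in 14 of 16 TBI rats, and the D9 level was 23.4 to 144.5% of the same rat's D2 level, with a median of 65.1%. The exceptions were TBI− rat 4, which went from 177.5 to 256 CPM, and TBI− rat 9, which went from 143 to 159 CPM. The steepest decline was in TBI+ rat 7, from 302 to 70.5 CPM. The log2 fold change of D9 against D2 in TBI rats was −0.57 (SE 0.17, 95% interval −0.92 to −0.22; edgeR adjusted p = 0.00873). Such a call was common, since 18.1% of 581 miRNAs were called lower and 13.9% higher on D9 in TBI rats. With the rat as a block the value was −0.58 (SE 0.20, edgeR adjusted p = 0.0158), and an exact sign-flip test over the 16 rats, two-sided and added after the data were seen, gave p = 0.00116. Most TBI rats also changed their run of library numbers between the days. With the run as a covariate the value was −0.55 (SE 0.19, edgeR adjusted p = 0.0212). With the ratio of miR-451-5p to miR-23a-3p as a covariate, described below, the call was lost (−0.25, edgeR adjusted p = 0.657). Per read of miR-28-3p, 12 of 16 TBI rats were lower on D9, and the fitted value scaled to miR-28-3p was −0.56 (SE 0.19, edgeR adjusted p = 0.0221).

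The 4 sham rats were also lower on D9, at 47.4, 79.7, 24.2 and 55.4% of their D2 level in rats 1 to 4. All 4 declined on the CPM scale, though by unequal amounts. Per read of miR-28-3p, 3 of 4 were lower, and sham rat 2 went from 79.0 to 115 reads per 100 of miR-28-3p. The log2 fold change was −0.91 (SE 0.35, edgeR adjusted p = 0.116), which did not pass the threshold, and −0.38 (SE 0.39, edgeR adjusted p = 0.713) when scaled to miR-28-3p, against a background of 3.79% of miRNAs called lower in sham. The exact sign-flip test over 4 rats gave p = 0.125, the smallest that 4 rats allow. Without sham rat 2 the value was −1.28 (SE 0.35, edgeR adjusted p = 0.0652). In sham the day cannot be told apart from the run of library numbers. The sham D2 libraries also entered the choice of the miRNA followed here. That choice favoured high sham values on D2, and so a decline to D9 in sham. The p-values for sham therefore cannot tell a decline with time from an effect of the choice. The day difference of TBI minus that of sham was 0.34 on the log2 scale (SE 0.39), and is given without a test because it is built from the differences to sham.

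By outcome, 7 of 7 TBI+ rats and 7 of 9 TBI− rats were lower on D9 in CPM, and 5 of 7 and 7 of 9 per read of miR-28-3p. The log2 fold changes were −0.61 (SE 0.27, edgeR adjusted p = 0.111) in TBI+ and −0.54 (SE 0.24, edgeR adjusted p = 0.1002) in TBI− rats. Neither passed the threshold, where edgeR called 11.2% of miRNAs lower in TBI+ and 12.9% in TBI− rats. Their difference was −0.07 (SE 0.36, 95% interval −0.78 to 0.65; edgeR adjusted p = 0.9998), and edgeR called 0% of all miRNAs for this difference, with 42 at an unadjusted p under 0.05 and 1 called by DESeq2.

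**Figure D3:**
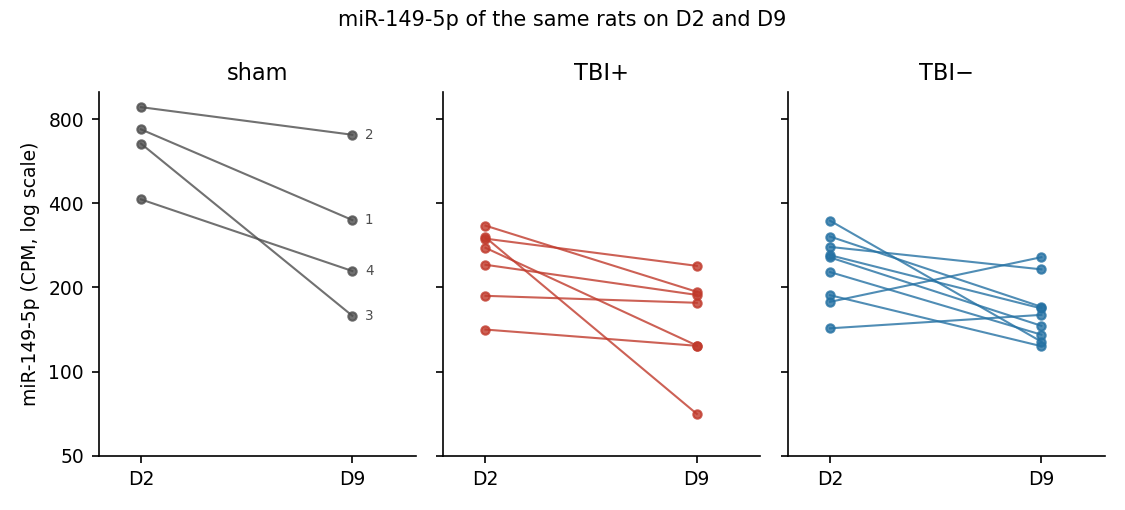
Level of miR-149-5p (CPM, log scale) of each rat on D2 and D9, 1 line per rat, for sham (animal numbers at the right), TBI+ and TBI− rats. All 4 sham and all 7 TBI+ lines go down, as do 7 of the 9 TBI− lines, and the order of the rats is not kept between the days.

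No relation was detected between the level of a TBI rat on D2 and its level on D9. Over the 16 TBI rats, log2(CPM + 1) on D2 and D9 had a Pearson r of −0.03 (permutation test, two-sided, p = 0.930) and a Spearman rho of 0.07 (permutation p = 0.799). Without the 2 rats farthest from the D2 median, r was −0.19 (permutation p = 0.526). Among the 7 rats whose libraries went from run 2 to run 1 it was −0.17 (exact permutation p = 0.733). This was the only such relation computed.

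Markers of red blood cells rose from D2 to D9 in TBI rats, over the days in which miR-149-5p fell. The index used was the log2 ratio of reads of miR-451-5p, which erythrocytes hold in large amounts, to those of miR-23a-3p, which they hold little of. It lay between −1.28 and 0.20 in sham and between −1.21 and 0.90 in TBI rats on D2. On D9 it lay between 0.85 and 1.39 in sham and between 0.06 and 2.39 in TBI rats. In sham its median went from −0.51 to 1.14, while miR-451-5p was at 0.15 (SE 0.46, edgeR adjusted p = 0.997) for D9 against D2. The rise of the index in sham thus does not come from miR-451-5p alone. The lowest miR-149-5p of all, in TBI+ rat 7 on D9, was in the library with the highest index, 2.39, while TBI− rat 9 on D9, with the next highest index of 2.16, had gone up from 143 to 159 CPM. With the index as a covariate in the fit, the D9 against D2 difference in TBI rats was −0.25 (SE 0.26, edgeR adjusted p = 0.657), and with the rat as a block besides it was −0.02 (SE 0.34, edgeR adjusted p = 1), so the call was lost in both. Day and index overlap little, which widens the SE. The differences to sham were −1.31 (SE 0.20) on D2 and −0.98 (SE 0.30) on D9 with the same covariate, close to those without it.

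Of 5 red blood cell miRNAs listed, 4 were in the count table (miR-451-5p, miR-144-3p, miR-144-5p and miR-16-5p). All 4 rose from D2 to D9 in TBI rats, miR-144-3p by 1.11 (SE 0.23) and miR-451-5p by 0.86 (SE 0.23) on the log2 scale (edgeR adjusted p = 0.000126 and 0.00287), in a comparison where 13.9% of all miRNAs were called higher. The median of the list was 0.73, against 0.06 over all miRNAs. Their summed level was 10781 to 48279 CPM on D2 and 17910 to 74325 CPM on D9 in TBI rats, and 22467 to 31913 and 13565 to 44768 CPM in sham. edgeR called 0 of the 4 for D9 against D2 in sham, where the list median was 0.11, or for TBI against sham on either day. The study screened the plasma for hemolysis by eye and by hemoglobin absorbance before sequencing, and no absorbance values were used here. The part of red blood cell RNA in the decline of miR-149-5p was not tested beyond this covariate.

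**Figure D4:**
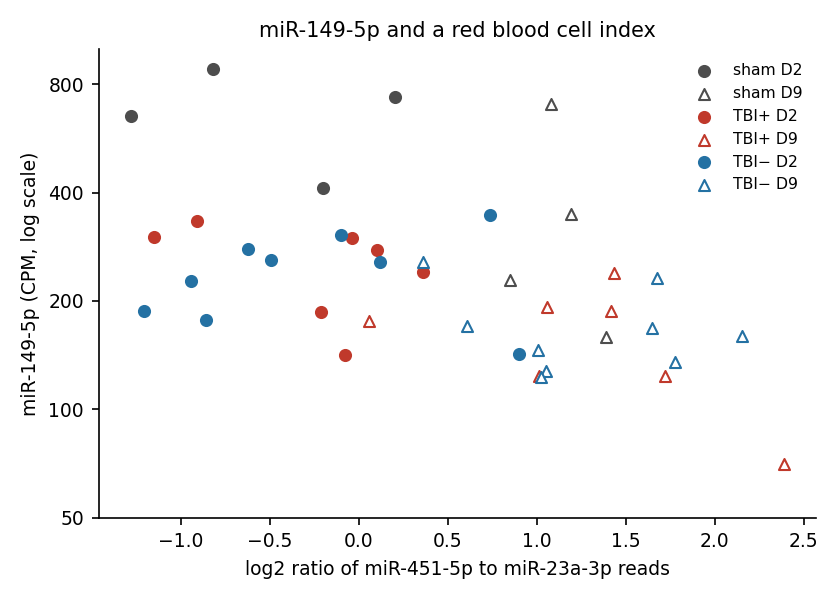
Level of miR-149-5p (CPM, log scale, vertical axis) against the log2 ratio of miR-451-5p to miR-23a-3p reads (horizontal axis) in each of the 40 libraries, with filled circles for D2, open triangles for D9, and colours for sham, TBI+ and TBI− rats. The D9 libraries lie to the right of most D2 libraries, and at D2 ratios between −1.28 and 0.20 the sham rats lie above the TBI rats.

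Lists for other cell types were read in the same libraries. Among platelet and myeloid miRNAs, miR-223-3p and miR-126a-3p rose from D2 to D9 in TBI rats by 0.51 (SE 0.18) and 0.84 (SE 0.21) on the log2 scale (edgeR adjusted p = 0.0210 and 0.00102). In that comparison 13.9% of all miRNAs were called higher. Neither was called in sham, where they were at −0.90 (SE 0.36) and 0.14 (SE 0.41). MiR-126a-5p had 0 reads in the table. The summed level of the 3 was 3958 to 5103 CPM in sham and 1466 to 4471 CPM in TBI rats on D2, and 2641 to 4028 and 2777 to 8081 CPM on D9. Of 5 neuronal miRNAs, 3 were higher in TBI than in sham rats on D2, miR-124-3p, miR-124-5p and miR-129-5p, where 3.19% of all miRNAs were called higher, with the first 2 and miR-9a-5p at 0 reads in all sham libraries. The neuronal sum, most of it miR-128-3p, was 4447 to 8177 CPM in sham and 3699 to 15224 CPM in TBI rats on D2, and 1757 to 3750 and 2431 to 9734 CPM on D9. Of 2 liver miRNAs, miR-122-5p had 0 reads in the table and miR-192-5p was at 24406 to 41556 CPM in sham and 11192 to 103411 CPM in TBI rats on D2, and at 34228 to 92892 and 29555 to 107453 CPM on D9. Why miR-122-5p and miR-126a-5p have 0 reads in all 40 libraries was not tested, and no absence from plasma is read from it. The part of any of these in the differences of miR-149-5p was not tested.

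In the order of group means, miR-149-5p went from sham D2 (671 CPM) over sham D9 (360 CPM), TBI+ D2 (254 CPM), TBI− D2 (242 CPM) and TBI− D9 (169 CPM) to TBI+ D9 (159 CPM). Each neighbouring pair in this order overlapped in its range. The step from sham D2 to sham D9 (311 CPM) and that from TBI− D2 to TBI− D9 (73.6 CPM) were larger than the pooled SD of their 2 groups (220 and 56.5 CPM), and the other 3 steps were smaller. Without sham rat 2 the sham D9 mean was 245 ± 96.1 CPM (SD, n = 3), which put it below TBI+ D2 and next to TBI− D2. The spread between rats, as the SD of log2 CPM within groups, was 0.42 on D2 and 0.56 on D9.

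The study picked miR-149-5p, miR-140-3p and miR-455-5p from these sequencing data for their lower count after TBI. It then measured them by droplet digital PCR in a small set of rats from another cohort, with baseline samples as naïve controls. For miR-455-5p it reported no difference between TBI and sham rats, but a lower level in TBI than in naïve rats. For miR-149-5p and miR-140-3p it reported no difference among the groups, with a decreasing trend from naïve to sham or TBI rats. So few rats limit what a lack of difference can show. Those measurements were not analysed here. MiR-140-3p and miR-455-5p, both known from cartilage, were chosen on these same samples, so their direction against sham is not independent evidence. Their other arms, miR-140-5p and miR-455-3p, were added to the list here. On D2 edgeR called 3 of the 4 lower in TBI than in sham rats, where 3.01% of all miRNAs were called lower. On D2 miR-140-3p was at −1.11 (SE 0.15) and miR-455-5p at −1.52 (SE 0.26) in TBI against sham rats, with a median of −1.22 over the 4. Of the other arms, miR-140-5p was called lower at −1.24 (SE 0.31, edgeR adjusted p = 0.0124) and miR-455-3p was not called. Of all miRNAs, 3.01% were called lower there. On D9 2 of the 4 were called lower, miR-140-3p at −0.93 (SE 0.24, edgeR adjusted p = 0.0209) and miR-455-3p at −4.95 (SE 0.77, edgeR adjusted p = 4.333e-05), where 2.4% of all were. The value of miR-455-3p rested on the library of sham rat 2 at 333 CPM. Without sham rat 2, edgeR called 0 miRNAs of any kind between TBI and sham on D9, with 70 at an unadjusted p under 0.05.

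Between the days these miRNAs gave no calls in injured rats. In TBI rats edgeR called 0 of the 4 for D9 against D2, with log2 fold changes of 0.10 (SE 0.13) for miR-140-3p and −0.17 (SE 0.24) for miR-455-5p, against −0.57 (SE 0.17) for miR-149-5p. Unadjusted p-values under 0.05 were found for 235 of the 581 miRNAs in this comparison, and the difference between miR-149-5p and these miRNAs was not tested. The mean of miR-140-3p was 5930 ± 849 CPM on D2 and 6242 ± 1609 CPM on D9 in TBI rats (SD, n = 16).

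Among 8 miRNAs that act in or are induced by Toll-like receptor and NF-kB signalling, 1 was called higher in TBI than in sham rats on D2, miR-132-3p at 1.298 (SE 0.29, edgeR adjusted p = 0.00392), and 0 were called lower. Of all miRNAs, 3.19% were called higher there. The study also counts miR-132-3p among the neuron-enriched miRNAs raised in plasma after TBI, so its call is not particular to this list. On D9 1 was called lower, miR-146a-5p, a feedback inhibitor of this pathway, at −2.13 (SE 0.44, edgeR adjusted p = 0.00213), with a sham mean of 3939 ± 6256 CPM (SD, n = 4), a spread larger than the mean that came from sham rat 2 at 13311 CPM. From D2 to D9 in TBI rats, 4 of the 8 rose and 1 fell, where 13.9% of all miRNAs were called higher and 18.1% lower. Those that rose were miR-21-5p (0.60), miR-155-5p (0.72), miR-223-3p (0.51) and let-7i-5p (0.91 on the log2 scale), and miR-132-3p fell by 0.70. The list median was 0.52, against 0.06 over all miRNAs. In sham 3 were called higher on D9 (miR-146a-5p, miR-146b-5p and let-7i-5p), where 2.93% of all were, and without sham rat 2 edgeR called 0 miRNAs higher in sham, with 77 at an unadjusted p under 0.05 in either direction.

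The miRNAs whose pattern over the 40 libraries was most like that of miR-149-5p were miR-322-3p (Spearman rho 0.69), miR-455-5p (0.67), miR-503-3p (0.63), miR-140-3p (0.63) and miR-152-3p (0.59). They lead 273 miRNAs that averaged 10 reads or more per library, and the median rho of all was −0.02. The libraries share groups, days and depth, so these values describe the pattern and carry no p. MiR-322-3p went from 1307 ± 314 CPM in sham on D2 (SD, n = 4) to 472 ± 142 CPM in TBI rats on D9 (SD, n = 16). MiR-152-3p, with 1102 ± 195 CPM in sham on D2 and 821 ± 260 CPM in TBI on D2, was at 374 ± 237 and 300.3 ± 139.1 CPM on D9. Without the D9 library of sham rat 2, 3 of these 5 were among the first 5 (rho of the 5 between 0.60 and 0.70). Within the 32 TBI libraries alone, 0 of these 5 were among the first 5, and the highest rho was that of miR-224-5p (0.72).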

How the data were processed

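Small RNA of rat plasma was sequenced as single reads on an Illumina HiSeq after TruSeq small RNA preparation without molecular identifiers. The authors checked the reads with FastQC (11.8), trimmed them with Trimmomatic (0.36), merged both flow cells of a sample, aligned them to the rat genome Rno6 with Bowtie2 and counted them on miRBase miRNAs with featureCounts. They deposited these raw read counts for 752 miRNAs in 40 libraries, without normalization. Multi-mapped reads could shift counts between near-copies, and adapter ligation favours some sequences, so levels of different miRNAs compare less well than 1 miRNA across samples.

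Groups, rats and days came from the sample titles. CPM was computed from library totals. Fits used edgeR (4.0.16, R 4.3.3) quasi-likelihood tests with TMM normalization over all miRNAs with a read in the fit, with Benjamini-Hochberg adjustment and a threshold of 0.05. Each day was fitted on its 20 libraries, and days were compared over all 40. The SE is the absolute log2 fold change divided by the square root of F. DESeq2 (1.42.0) was an alternative. The edgeR fit was tested on simulated data. Correlations used 100000 permutations (scipy 1.17.1). A limit of a count of 0 is 3 reads of the total, and intervals are at 95%. The floor of 3 reads was 1.05 to 21.3 CPM per library, and the counting error of miR-149-5p was 5.94 to 41.2% of its value. D2 and D9 libraries of the same animal are paired by their titles. Deviations from the group means correlated by a median of −0.05 (−0.32 to 0.39) over the 20 pairs. This was no higher than the −0.04 over 30 pairs of different rats that share an animal number. The pairing therefore rests on the titles and is not borne out by the counts. The 2 arms and the miRNA lists were chosen with earlier results of these data known. Named miRNAs are the 2 arms, the list members and the 5 most like miR-149-5p. Identical libraries were looked for, and 0 pairs were found. The 685 count names with a RefSeq sequence did not include miR-455-5p.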

Additional observations from a re-analysis of the deposited data

Results flagged for a closer look

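On the scale of reads of miR-149-5p per 100 reads of miR-28-3p, single rats stood apart from their group. Sham rat 2 had 115 on D9, where the other 3 sham rats had 16.2 to 31.0 (gap over range 0.85, critical value 0.829), and its miR-28-3p was the lowest of the sham libraries of that day at 611 CPM. TBI+ rat 6 had 33.0 on D9, the highest of its group (gap over range 0.626, critical value 0.568). On the CPM scale neither rat passed the same limit. Chance alone passes it in about 5% of groups.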

How the results depend on the processing

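Of the values of 17 results under other settings, 10 changed their side of the threshold or moved by more than their spread, and 0 reversed a called value. All 76 values of injury against sham were below 0. Leaving out 1 sham rat at a time gave −1.53 to −1.12 (TBI), −1.52 to −1.13 (TBI+) and −1.55 to −1.12 (TBI−) on D2, −1.29 to −0.60, −1.32 to −0.44 and −1.26 to −0.58 on D9 (−0.44 among libraries numbered in the sham run), −1.28 to −0.69 for D9 against D2 in sham and 0.12 to 0.73 for TBI minus sham. The call of D9 against D2 in TBI rats was lost with the miR-451-5p to miR-23a-3p ratio as a covariate (−0.25) and with the rat block added (−0.020). Of the 5 miRNAs most like miR-149-5p, 3 stayed without the D9 library of sham rat 2. TBI minus sham went from 0.34 to −0.18 when scaled to miR-28-3p. D9 against D2 passed the threshold in TBI+ with DESeq2 (−0.68, adjusted p = 0.0384) and the exact sign-flip test (−0.71, p = 0.0156, the smallest that 7 rats allow), and in TBI− with DESeq2 (−0.58, adjusted p = 0.0362) and the exact sign-flip test (−0.51, p = 0.0313). The cause was not tested. The sign-flip tests, the values within a run, those that leave out sham rat 2 together with another choice, and the blocks combined with a covariate were added after the data were seen.

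The rat block changed no call by itself, with −1.04 for D9 against D2 in sham, −0.58 in TBI, −0.63 in TBI+ and −0.54 in TBI−. The animal number, which different rats share across groups, correlated by a median of −0.04 over 30 pairs, and as a replicate block gave −1.26 for TBI against sham on D2, −0.84 on D9, and −0.13 and −0.21 for TBI+ against TBI−. Depth limits the D9 sham values and any statement on miR-149-3p.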
